A study of Mus musculus with 2 samples.

Results

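The keratins described here are the protein-coding mouse genes named Krt followed by a number, without the wound keratin genes Krt6a, Krt6b, Krt16 and Krt17. This rule uses names only, and it found 49 genes among the 34745 in the table. RNA was measured in 2 libraries of imiquimod-treated mouse ear skin, 1 labelled WT and 1 labelled KAT8-cKO, a conditional knockout of the histone acetyltransferase gene Kat8. Both received 30 mg of 5% cream per ear on each of 3 days, and ears were taken on day 4. Imiquimod activates TLR7 and, applied repeatedly, gives mouse skin a psoriasis-like inflammation. The labels and protocols read here do not name the promoter or cell type driving the knockout, or the strain, age, sex and number of animals per library. Each group had 1 library, so no test was run and every difference describes these 2 libraries, not the genotypes.

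Keratins are the intermediate filament proteins of epithelial cells. A filament is built from pairs of an acidic type I and a basic or neutral type II keratin, and the genes lie in a type I cluster and a type II cluster. In skin, keratin expression follows position and differentiation. Krt5 and Krt14 mark the basal layer, Krt1 and Krt10 replace them as cells move up, and simple epithelia, glands, root sheaths and hair shafts each use their own pairs. Of the 49 genes, 25 type I genes were on chromosome 11, and 23 type II genes and the type I gene Krt18 were on chromosome 15. The genes were placed in compartments by their textbook sites of expression, with 4 genes left unplaced.

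Several facts of the libraries bear on all values below. The libraries held 12179608 (WT) and 13727524 (KAT8-cKO) counts. Kat8 itself had 219 and 351 counts, a ratio of scaled counts of 1.27 (95% interval 1.07 to 1.51), so it was not lower under the knockout label, and the libraries are named by their labels. Xist had 11891 and 6 counts and the Y-linked gene Eif2s3y 0 and 838, the pattern of female tissue for WT and of male tissue for KAT8-cKO. The sex of the animals and the label therefore cannot be told apart in any ratio below. In the KAT8-cKO library, summed markers of skeletal muscle were 5.01-fold lower, those of adipocytes 9.30-fold and those of neutrophils 2.76-fold, and sebocyte markers were 3.81-fold higher. In whole skin, fewer cells of a type and less RNA per cell cannot be told apart.

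Levels are CPM, counts divided by a library size adjusted with the trimmed mean of M values (TMM), and ratios are those of the library labelled KAT8-cKO over the library labelled WT. A keratin was measured where 1 of the libraries or both gave at least 1 CPM. Genes past 2-fold are those whose log2 ratio, after 1 CPM was added to both levels, was 1 or more in size. Printed folds have nothing added, and intervals are exact 95% binomial intervals that cover counting error only. Of the 49 keratins 28 were measured, and 21 stayed below 1 CPM in both libraries, with at most 12 counts each. Past 2-fold were 17 of the measured keratins, 11 of them higher and 6 lower. The background was 4.56% higher, 8.63% lower and 13.2% in either direction among the 15240 measured genes of the table. The filter shapes the keratin counts, because 10 keratins reached 1 CPM only in the library labelled KAT8-cKO, 8 of them among the 11 higher. A further 3 reached it only in the library labelled WT. Among the 15 at 1 CPM or more in both libraries, 3 were higher, 5 lower and 7 within 2-fold. The median log2 ratio was 0.43 over the measured keratins, 0.00 over all 49, and 0.01 over all measured genes.

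**Figure D1:**
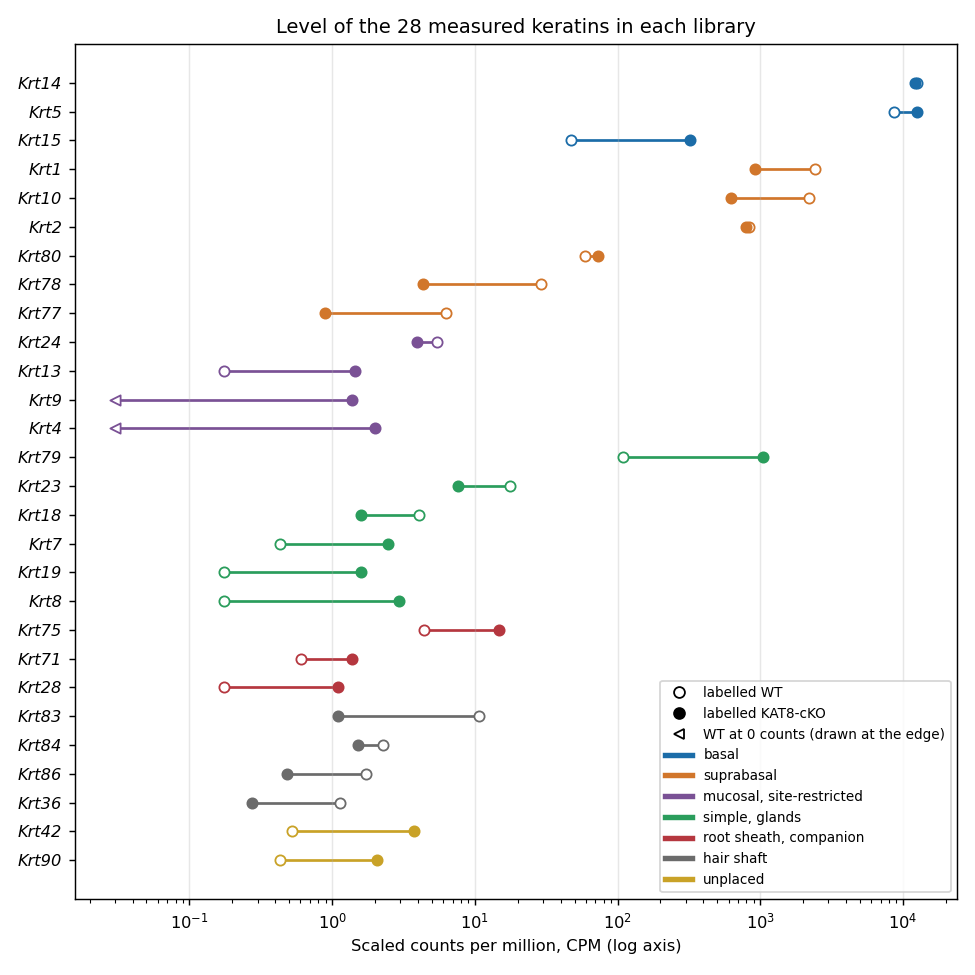
Level of the 28 measured keratins in CPM on a log axis, with open points for the library labelled WT and filled points for the library labelled KAT8-cKO, coloured by compartment. Each point is 1 library without an error, and the filled points of Krt15 and Krt79 lie far to the right of the open ones while those of Krt1, Krt10, Krt77 and Krt78 lie to the left.

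The short stretches before the start sites of 5 keratin genes are shown because they represent the compartments that differed in opposite directions, with Krt75 higher past 2-fold, Krt5 higher within it, Krt10 and Krt78 lower and Krt79 the gene with the highest ratio among the more abundant members. Sequences are from RefSeq on GRCm38.p6, the 250 bases before the annotated start, read 5′ to 3′ on the minus strand, on which all 5 genes lie. Capitals mark TATAAA, the letters of the TATA box that positions transcription initiation, or ATAAAAG, a run of letters chosen after the sequences had been seen. Coordinates are chr15:101712906-101713155 for Krt5, chr11:99389365-99389614 for Krt10, chr15:101573905-101574154 for Krt75, chr15:101954288-101954537 for Krt78 and chr15:101940325-101940574 for Krt79.
Krt5: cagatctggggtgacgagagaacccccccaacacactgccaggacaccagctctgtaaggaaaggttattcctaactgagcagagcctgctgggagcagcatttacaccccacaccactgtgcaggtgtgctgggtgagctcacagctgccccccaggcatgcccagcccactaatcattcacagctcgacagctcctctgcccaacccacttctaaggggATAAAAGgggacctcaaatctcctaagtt
Krt10: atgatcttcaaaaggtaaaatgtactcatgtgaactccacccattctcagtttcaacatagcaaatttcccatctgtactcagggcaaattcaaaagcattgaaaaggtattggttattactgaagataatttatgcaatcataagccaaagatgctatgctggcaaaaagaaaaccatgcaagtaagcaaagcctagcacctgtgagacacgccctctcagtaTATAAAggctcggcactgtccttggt
Krt75: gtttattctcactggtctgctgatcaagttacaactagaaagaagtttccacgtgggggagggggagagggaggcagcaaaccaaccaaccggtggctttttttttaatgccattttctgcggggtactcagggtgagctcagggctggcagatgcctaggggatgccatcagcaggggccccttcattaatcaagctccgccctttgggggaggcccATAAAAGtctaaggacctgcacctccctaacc
Krt78: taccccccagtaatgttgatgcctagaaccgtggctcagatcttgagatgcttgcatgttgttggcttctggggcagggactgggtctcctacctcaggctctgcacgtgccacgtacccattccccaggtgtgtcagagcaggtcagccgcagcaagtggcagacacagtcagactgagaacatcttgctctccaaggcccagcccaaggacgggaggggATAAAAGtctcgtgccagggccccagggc
Krt79: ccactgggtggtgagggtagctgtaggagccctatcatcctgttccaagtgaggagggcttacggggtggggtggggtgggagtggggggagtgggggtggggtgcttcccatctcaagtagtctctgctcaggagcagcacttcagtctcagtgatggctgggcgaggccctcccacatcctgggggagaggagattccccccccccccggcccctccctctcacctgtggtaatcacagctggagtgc

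The capitals start 26 bases before the start of Krt10, 29 before those of Krt5 and Krt78 and 32 before that of Krt75, and none occur in the window of Krt79. A promoter was matched by symbol for 36 of the 49 keratins. Searched on both strands, TATAAA stood in 17 of the 36 and in 12.4% of all 32851 promoters of the same length. It stood in 13 of the 15 keratin promoters whose genes stayed below 1 CPM, most of them of hair, and in 4 of the 21 whose genes were measured. The windows of Krt7 and Krt14, and a second window of Krt13, lie inside the gene spans of the annotation used for coordinates. They are therefore not the bases before those genes. Krt1, Krt4, Krt15, Krt19, Krt80, Krt83 and Krt86 were measured but had no matched promoter. ATAAAAG, which can overlap TATAAA, stood in 12 of 36 and in 4.83% of all promoters. The 12 include the printed promoters from which the letters were chosen, so their share cannot be weighed against that of all promoters. The AP-1 letters TGANTCA stood before 1 keratin gene, Krt13, and in 6.75% of all promoters. AP-2 letters (GCCNNNGGC) stood before Krt7, Krt9, Krt18, Krt42 and Krt90 and in 13.7% of all. Sp1 letters (GGGCGG) stood before Krt7 and Krt75 and in 32.7% of all. Letters bound by grainyhead-like factors (AACCNGTT) stood before none of the 36 and in 1.79% of all. ATAAAAG stands before Krt5, Krt75 and Krt78 by the way it was chosen, and the RNA of these genes differed in opposite directions.

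Basal keratins held the largest share of keratin RNA of any group in both libraries, and their summed level differed little while Krt15 alone stood far apart. The summed CPM of Krt5, Krt14 and Krt15 was 21236 for WT and 24999 for KAT8-cKO, a ratio of 1.18 (interval 1.17 to 1.18). Krt14 (ENSMUSG00000045545, chr11:100203162-100207548, minus strand, GRCm38), the type I basal keratin, had 145005 and 175086 counts, or 12587 and 12064 CPM, a ratio of 0.959. Its type II partner Krt5 (ENSMUSG00000061527, chr15:101707070-101712898, minus strand) had 99103 and 183053 counts, or 8602 and 12613 CPM, a ratio of 1.47 (interval 1.45 to 1.48). The direction of Krt14 is not settled, since its log2 ratio was above 0 with plain CPM, taken on the library totals without the TMM adjustment. Krt15 (ENSMUSG00000054146, chr11:100131758-100135928, minus strand), a basal keratin enriched in the hair follicle bulge where stem cells lie, had 547 and 4667 counts, or 47.5 and 322 CPM. Even so it remained a minor basal keratin. Per kilobase of merged exon, the level of Krt14 was 266 times that of Krt15 in the library labelled WT and 37.7 times in the other.

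Other genes of basal cells and of the bulge were described from lists written for this work. Of 8 basal keratinocyte genes without keratins 1 was at least 2-fold higher and none lower by that much. The higher one was Col17a1, a hemidesmosome collagen, with 533 and 1073 CPM. Inside 2-fold, Lama3 was 1.91-fold lower and Lamb3 had a ratio of 0.873, while the others had ratios above 1. The summed level of the 8 was 1.40-fold higher under the KAT8-cKO label, which is close to the ratio of Krt5 and above that of Krt14. Of 9 bulge genes 5 were higher and none lower, with a median log2 ratio of 1.01. Lgr5, a stem cell receptor of the follicle, had 11 and 133 counts (9.60-fold, interval 5.19 to 19.7), and Sox9, a transcription factor of follicle stem cells and cartilage, had 126 and 708 (4.46-fold). Lhx2, another bulge transcription factor, had 24 and 119 counts (3.94-fold). Col17a1 stands in both lists, and the matrix gene Postn, higher by 3.54-fold, is made by fibroblasts as well. What part follicle content had in the Krt15 value was not tested.

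Suprabasal keratins were lower together in the KAT8-cKO library, with Krt2 and Krt80 apart. Their summed level was 5556 and 2419 CPM, 2.30-fold lower (interval 2.27 to 2.33). Past 2-fold lower were 4 of the 6 genes, against 8.63% of all measured genes. Krt1 (ENSMUSG00000046834, chr15:101845426-101850794, minus strand), the type II keratin of early differentiation, had 28004 and 13406 counts, or 2431 and 924 CPM (2.63-fold lower, interval 2.58 to 2.69). Its partner Krt10 (ENSMUSG00000019761, chr11:99385254-99389364, minus strand) had 25301 and 9051 counts, or 2196 and 624 CPM (3.52-fold lower, interval 3.44 to 3.61). An exon of Krt10 overlaps one of the antisense gene Gm11940, which had 11 and 4 counts. The 4 low values therefore include both members of the main suprabasal pair.

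Krt77 and Krt78 had the highest folds of the group, and Krt2 and Krt80 the lowest. Krt78 had 335 and 63 counts, or 29.1 and 4.34 CPM (6.70-fold lower, interval 5.10 to 8.91). Krt77 had 72 and 13 counts (6.98-fold lower, interval 3.83 to 13.7). The filter admitted Krt77 through the library labelled WT, the only one where it reached 1 CPM. With 5 CPM added in place of 1, Krt77 was inside 2-fold. By contrast Krt2, a type II keratin of the upper spinous and granular layers, had 9614 and 11514 counts, or 835 and 793 CPM, a ratio of 0.951 (interval 0.925 to 0.977) whose log2 was above 0 with plain CPM. Krt80, a type II keratin of several differentiating epithelia, had 679 and 1059 counts (ratio 1.24, interval 1.12 to 1.37). Krt2 and Krt80 thus stood near 1 in ratio beside 4 lower genes of the same compartment. Per kilobase the level of Krt1 was 1.72 times that of Krt2 for WT and 0.689 times for KAT8-cKO. With the longest coding transcript as the length, the level of Krt1 was above that of Krt2 in both, at 990 against 319 and at 376 against 304 CPM per kilobase.

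Most genes of a late differentiation list were lower beside these keratins. Of 10 listed genes 8 were lower past 2-fold and none higher, with a median log2 ratio of -2.17. Within 2-fold were Lor, with 360 and 259 CPM, and Flg2, with 126 and 150 counts. The repetin gene Rptn was 16.4-fold lower, the hornerin gene Hrnr 7.48-fold, the filaggrin gene Flg 5.55-fold and the desmosomal cadherin gene Dsc1 4.91-fold. Grhl3, a transcription factor of terminal differentiation, went the same way at 2.16-fold lower. Neutrophil and muscle markers, as given above, were lower in the same library, and their part in these values was not tested.

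**Figure D2:**
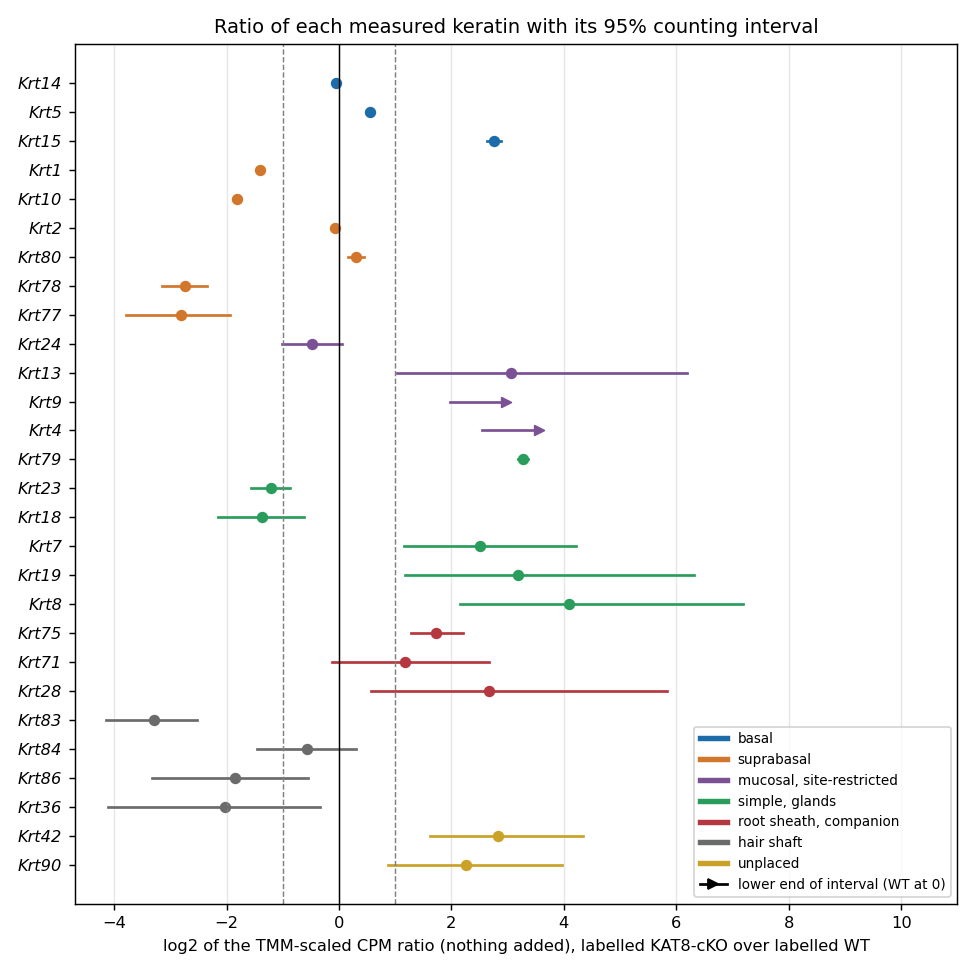
Log2 of the TMM-scaled CPM ratio with nothing added (library labelled KAT8-cKO over library labelled WT) of the 28 measured keratins, with exact 95% counting intervals, dashed lines at a 2-fold difference and arrows that start at the lower end of the interval for Krt4 and Krt9, which had 0 counts in the library labelled WT. Intervals are narrower than the points for Krt1, Krt2, Krt5, Krt10 and Krt14 and wide for the genes with few counts, such as Krt8 with 2 and 43.

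The balance between basal and suprabasal keratins therefore differed between the libraries. The summed level of Krt5 and Krt14 per kilobase of exon was 6.97 times that of Krt1 and Krt10 for WT and 25.0 times for KAT8-cKO. As a share of all keratin counts, wound keratins included, basal keratins took 49.0% and 70.2%, suprabasal keratins 12.8% and 6.80%, and the simple and glandular group 0.304% and 2.99%. Krt79, a keratin of the upper follicle and the sebaceous duct, gave most of that last group. It held 1251 of the 1519 counts for WT and 15212 of the 15449 for KAT8-cKO. Wound keratins took 37.8% and 19.9%. These shares do not depend on the scaling of the libraries. Within that excluded group Krt6a, Krt6b and Krt16 were 2.36-fold, 3.79-fold and 2.99-fold lower, and Krt17, which follicle epithelium also expresses, had a ratio of 1.38. All keratins together took 4.10% and 3.76% of the library counts, and the 49 keratins without the wound group 2.55% and 3.02%.

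**Figure D3:**
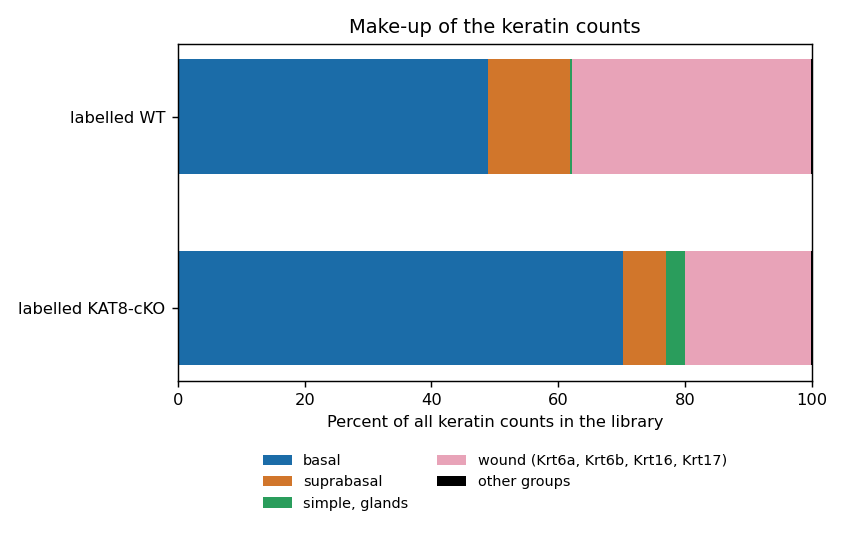
Percent of all keratin counts taken by each compartment, 1 bar per library, with the 4 wound keratins shown for comparison. Basal keratins fill 49.0% of the bar for the library labelled WT and 70.2% of the bar for the library labelled KAT8-cKO, and wound keratins 37.8% and 19.9%.

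Partner genes did not keep a fixed ratio. Per kilobase, the level of Krt5 was 0.547 of that of Krt14 under the WT label and 0.837 under the KAT8-cKO label. Krt1 stood at 0.530 and 0.709 of the level of Krt10. With the longest coding transcript as the length these became 0.944 and 1.26, because the merged exons of Krt1 span 4415 bases and its longest coding transcript 2455, so the order of Krt1 and Krt10 is not settled. Over all 49 keratins, the summed type II level was 0.587 of the type I level for WT and 0.884 for KAT8-cKO. With the 4 wound keratins added the values were 0.794 and 0.864, a smaller difference between the libraries. RNA levels do not give protein levels.

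**Figure D4:**
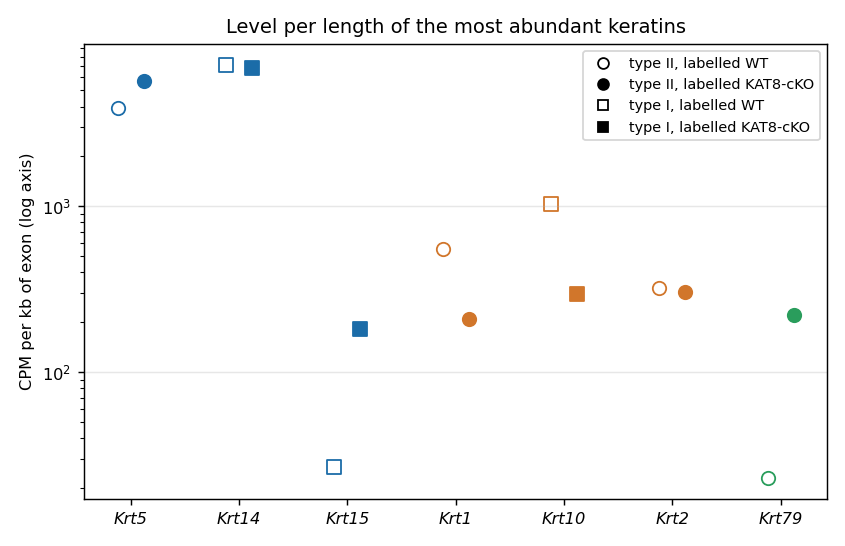
Level per kilobase of merged exon, on a log axis, of the 7 keratins at or above 100 CPM in either library, with squares for type I and circles for type II genes, open for the library labelled WT and filled for the library labelled KAT8-cKO. The basal pair Krt5 and Krt14 lies closer together in the library labelled KAT8-cKO, and Krt10 lies at the level of Krt2 there.

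The simple epithelial and glandular group had the highest ratio of summed levels, and 1 gene made it. The sum was 132 CPM for WT and 1065 CPM for KAT8-cKO (8.07-fold, interval 7.66 to 8.52). Krt79 (ENSMUSG00000061397, chr15:101929332-101940324, minus strand), a type II keratin of the upper follicle and the sebaceous duct, had 1251 and 15212 counts, or 109 and 1048 CPM. Without Krt79 the rest of the group was lower, with 268 and 237 counts and a ratio of 0.702 (interval 0.587 to 0.839). The most abundant gene of that remainder was Krt23, a type I keratin, with 203 and 110 counts (2.33-fold lower, interval 1.83 to 2.96). Its log2 ratio with plain CPM was -0.97, inside 2-fold.

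The classic simple keratins were scarce and split. Krt8, the type II keratin of simple epithelia, had 2 and 43 counts (17.1-fold, interval 4.45 to 145), while its usual partner Krt18 had 47 and 23 counts (2.57-fold lower, interval 1.53 to 4.44, log2 ratio with the added CPM -0.97). Krt19, a type I keratin of simple epithelia and of the bulge, had 2 and 23 counts (9.13-fold, interval 2.26 to 79.9). Krt7, a type II keratin of ducts and glands, had 5 and 36 counts (5.72-fold, interval 2.24 to 18.7). Krt20, which Merkel cells express with Krt8 and Krt18, had 9 and 2 counts and was not measured. Thus Krt7, Krt8 and Krt19 were past 2-fold higher and Krt23 past 2-fold lower, with Krt18 just inside the threshold on the lower side. Krt7, Krt8 and Krt19 reached 1 CPM only in the library labelled KAT8-cKO, so the filter admitted them through the library where they are high. With 5 CPM added in place of 1, they and Krt23 were inside 2-fold.

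Markers of the cells that could carry these keratins differed unevenly. Of 12 sebocyte genes 9 were past 2-fold higher and 1, Dgat2, lower, with a median log2 ratio of 2.52. Among them the fatty acyl-CoA reductase gene Far2 had 283 and 9264 counts and the melanocortin receptor gene Mc5r 11 and 88. Of 8 genes of the upper follicle and sebaceous duct 1 was higher, Sostdc1 with 97 and 550 counts. Teddm3, with 1004 and 628 counts, was 2.01-fold lower (interval 1.82 to 2.23) and just inside the threshold with 1 CPM added. The median log2 ratio of the 8 was 0.18, and that of Krt79 was 3.26. Of 8 Merkel cell genes 3 were measured. The summed level of the 8 was 8.25 and 6.06 CPM, and the median log2 ratio of the 3 measured was 0.26. Isl1 had 56 and 16 counts, while Piezo2 had 13 and 33 and Chga 10 and 18. Atoh1, which defines these cells, had 1 and 0 counts. What part sebaceous content had in the Krt79 value was not tested.

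Keratins of mucosal and specialised sites had low counts in both libraries. The group had 66 and 129 counts in sum (1.55-fold, interval 1.14 to 2.12, log2 ratio 0.63). Krt4, the type II keratin of stratified mucosal epithelium, had 0 and 29 counts, which is 7.67-fold higher against a floor of 3 counts in the library and at least 5.85-fold by the lower end of the counting interval. Its partner Krt13 had 2 and 21 counts (8.34-fold, interval 2.04 to 73.3). Krt9, the type I keratin of palm and sole, had 0 and 20 counts, 5.29-fold higher against that floor and at least 3.92-fold by the interval. These 3 genes thus rest on 29 counts or fewer in a library. They reached 1 CPM only in the library labelled KAT8-cKO, where they are high. With 5 CPM added in place of 1 they were inside 2-fold. Krt24 had 63 and 57 counts, a ratio of 0.718 (interval 0.493 to 1.04). Without Krt24 the group had 3 and 72 counts. Krt12, the corneal keratin, and Krt76, an oral keratin, had at most 2 counts in a library.

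Keratins of the inner root sheath and companion layer were higher in sum and hair shaft keratins lower, both at low levels. The sheath group had 74 and 275 counts (2.95-fold, interval 2.27 to 3.87). Krt75, the companion layer keratin, made most of it with 51 and 213 counts, or 4.43 and 14.7 CPM (3.32-fold, interval 2.43 to 4.59). Without Krt75 the group had 23 and 62 counts (2.14-fold, interval 1.31 to 3.62). In the sheath itself, Krt28 had 2 and 16 counts and Krt71 7 and 20. Krt25 and Krt27, type I partners in this layer, had 3 and 6 and 4 and 12 counts and were below 1 CPM in both libraries.

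Hair shaft keratins, which hard-keratinise the fibre, had 215 and 78 counts in sum (3.47-fold lower, interval 2.67 to 4.56). Krt83, a type II keratin of the cortex, had 124 and 16 counts (9.76-fold lower, interval 5.78 to 17.6), the most of any shaft gene in the library labelled WT and fewer than Krt84 in the other. Its close relative Krt86 had 20 and 7 counts (lower, interval of the fold 1.46 to 10.1), Krt36 13 and 4 and Krt84 26 and 22. Without Krt83 the group had 91 and 62 counts (1.85-fold lower). The other 11 of the 15 shaft genes were below 1 CPM, and none of the 57 keratin-associated protein genes (Krtap) in the table was measured (20 and 19 counts in all). Of 11 other shaft and matrix genes 9 were measured, with 1 higher and 2 lower. Lef1, a transcription factor of the hair matrix, had 7 and 44 counts, the deiminase gene Padi3 20 and 5, and Selenbp1 428 and 238. Unplaced keratins at 1 CPM were Krt42 with 6 and 54 counts (7.14-fold, interval 3.08 to 20.3) and Krt90 with 5 and 30 (4.76-fold, interval 1.83 to 15.7).

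Some neighbouring genes in the clusters differed in the same direction and others in opposite directions. In the order of keratin genes along chromosome 11, Krt13, Krt15, Krt19 and Krt9 follow each other, and all 4 were at least 2-fold higher, although their compartments differ. Of these, Krt13, Krt19 and Krt9 reached 1 CPM only in the library labelled KAT8-cKO, so the filter admitted them through the library where they are high. With 5 CPM added in place of 1 they were inside 2-fold. So were Krt13 and Krt19 when the libraries were scaled to equal basal keratinocyte genes. The gene after the run of 4, Krt14, was within 2-fold. The gene before the run, Krt36, was 4.09-fold lower (interval 1.27 to 17.2) with nothing added to the levels, and inside 2-fold with 1 CPM added. On chromosome 15, Krt90 and Krt75 are adjacent and both higher, Krt1 and Krt77 adjacent and both lower, and Krt4 and Krt79 adjacent and both higher. Krt79 and Krt78 are adjacent too, and were 9.65-fold higher and 6.70-fold lower. Krt78 also lies beside Krt8, which was higher. Between Krt75 and the wound keratin Krt6b, which was lower, lie the protein-coding genes Gm5414 and Gm5478, which were lower too. Krt90, Krt4 and Krt8 also reached 1 CPM only in the library labelled KAT8-cKO, and Krt77 only in the library labelled WT. Adjacent genes of close sequence can share reads, so sequence sharing was measured.

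**Figure D5:**
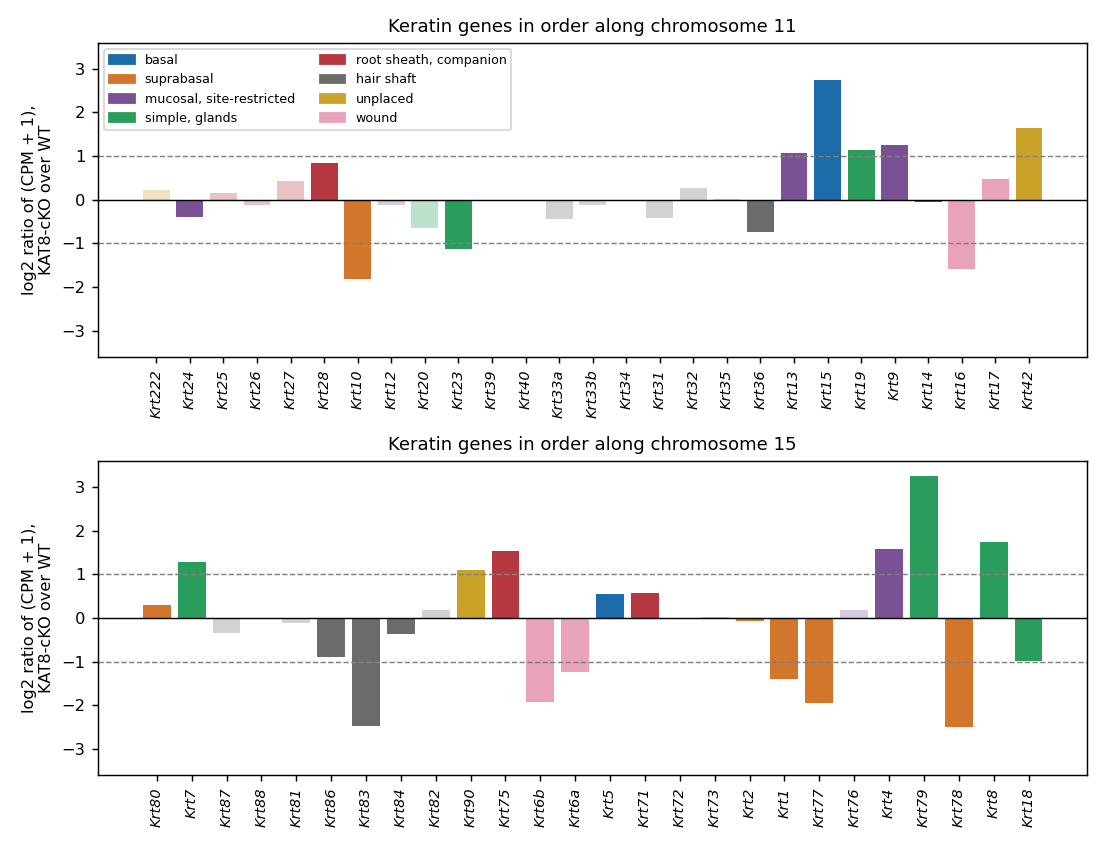
Log2 ratio of (CPM + 1) of the genes named Krt in their order along chromosomes 11 and 15, coloured by compartment. Other genes between them are left out. Pale bars are genes below 1 CPM in both libraries, and dashed lines mark a 2-fold difference. Krt13, Krt15, Krt19 and Krt9 stand side by side above the upper line, and Krt79 stands next to Krt78 with the opposite sign.

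Sequence sharing touched few of the genes that differed. Words of 50 bases from the longest coding transcript of each keratin were looked up in the transcripts of all other genes of the annotation. No word was shared for Krt1, Krt2, Krt4, Krt7, Krt9, Krt10, Krt13, Krt19, Krt75, Krt77, Krt78, Krt79 or Krt90, and 0.666% were shared for Krt15. For Krt14 14.4% of words were shared, mostly with Krt16, and for Krt5 8.52%, mostly with Krt6a. Krt8 shared 26.9% with a pseudogene, Krt83 23.2% and Krt86 43.3% with neighbouring shaft keratins, so values of these 3 are less certain. The sources read here do not say how the authors assigned such reads.

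Proteins that link keratin filaments and regulators of keratin genes were read from lists written with earlier results of these data known. Of 12 linker genes 1 was higher and 1 lower, with a median log2 ratio of -0.07. Plec, which encodes the linker plectin, had 334 and 758 CPM (2.27-fold higher), and Flg, whose product bundles keratin, was the lower one. Of 22 regulators 5 were higher (Lhx2, Sox9, Gata3, Vdr and Lef1) and 1 lower (Grhl3), with a median log2 ratio of 0.41. Gata3, a factor of the inner root sheath that T cells also express, had 266 and 918 counts (2.74-fold), and Vdr, the vitamin D receptor gene, 366 and 1027 (2.23-fold). Trp63, the master regulator of basal keratinocytes, had 3483 and 6172 counts, a log2 ratio of 0.49, and Klf4, a factor of differentiation, 3683 and 2727 counts, a log2 ratio of -0.76.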

How the data were processed

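RNA-seq counts of 2 libraries were used. The authors deposited unnormalized whole-number counts for 34745 Ensembl genes. The submitters' processing notes list HISAT2, StringTie 1.3.0, edgeR and mm10 with no role for each, and no source read here gives the counting tool, annotation or strand setting. Symbols, coordinates, exon lengths and transcripts are from GENCODE M21 (GRCm38, the assembly of mm10), which paired 34344 genes with a symbol. Counts were scaled with TMM factors (edgeR 4.0.16, R 4.3.3; 0.946 for WT and 1.06 for KAT8-cKO). At these totals 1 count was 0.0868 and 0.0689 CPM. Intervals are Clopper-Pearson intervals (SciPy 1.17.1), and a gene at 0 was set to a floor of 3 counts for its fold. PCR copies of a molecule are not told apart, so intervals cover counting error only. As each group had 1 library, no test, p-value or replicate check was possible. The calculations were tested on simulated counts that varied by counting error only. Changes were set only in genes at 5 CPM or more, so the test did not cover changes in keratins under 5 CPM. The members, compartments and lists were chosen with earlier results of these data known. Named were every keratin at 1 CPM or more, at most 4 members of each other list that differed by 2-fold, or else the 2 most abundant, and Kat8 and the wound keratins. Other genes were named after their values were seen. Alternatives tried were plain CPM, DESeq2 1.42.0 size factors, totals without the 50 most abundant genes, other pseudocounts, filters and folds, and genes without exon overlap. Scaling to basal genes and transcript length were added after seeing the data.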

Additional observations from a re-analysis of the deposited data

How the results depend on the processing

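The 11 higher and 6 lower keratins became 11 and 5 with plain CPM, 13 and 9 with a pseudocount of 0.1 and 12 and 9 with a 1.5-fold rule. With a pseudocount of 5 there were 3 higher and 4 lower, and with a filter of 5 CPM 3 higher and 6 lower, since 8 of the higher genes (Krt4, Krt7, Krt8, Krt9, Krt13, Krt19, Krt42 and Krt90) were under 5 CPM. The pseudocount of 5 also left Krt23 and Krt77 inside 2-fold, and plain CPM left Krt23 there. The median log2 ratio was 0.55 with plain CPM, 0.51 without the 50 most abundant genes, 0.00 with no filter, -0.23 with a filter of 5 CPM, 0.55 without genes of overlapping exons and -0.18 when the libraries were scaled to equal basal keratinocyte genes, a scaling chosen after seeing the data that gave 8 higher and 8 lower, without Krt13, Krt19 and Krt90 and with Krt18 and Krt86 added to the lower genes. That scaling moved the median of all genes to -0.45, plain CPM to 0.16 and the totals without the 50 most abundant genes to 0.11. The log2 ratio of summed basal keratins was 0.24 as reported, 0.40 with plain CPM, 0.25 with median-of-ratios size factors, 0.34 without the 50 most abundant genes and -0.25 with basal scaling. For suprabasal keratins it was -1.20, against -1.04 with plain CPM, -1.09 without the 50 most abundant genes, -0.90 without Krt10 (the member with overlapping exons) and -1.69 with basal scaling. For the simple and glandular group it was 3.01, against 3.17, 3.12 and 2.53 with plain CPM, without the 50 most abundant genes and with basal scaling. Basal scaling gave 0.15 for mucosal keratins, 1.07 for the root sheath and -2.28 for the hair shaft, against 0.63, 1.56 and -1.80. Signs changed for Krt2 and Krt14 with plain CPM and without the 50 most abundant genes, and for Krt80 with basal scaling. With transcript length, added after seeing the data, Krt5 over Krt14 was 0.528 (WT) and 0.808 (KAT8-cKO), Krt1 over Krt10 0.944 and 1.26, type II over type I 0.624 and 0.914, and the basal over the suprabasal pair 5.56 and 19.1. No paired analysis was possible because each group has 1 library. Counts limit the keratins under 5 CPM, whose counting intervals are wide, as for Krt8 (4.45 to 145).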

Other observations

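Keratin genes outside the naming rule lay beside the wound keratins on chromosome 15. Gm5478 (chr15:101643020-101647380, minus strand) and Gm5414 (chr15:101624028-101628188, minus strand), protein-coding genes that share words of 50 bases with Krt6a or Krt6b, had 2092 and 930 and 2026 and 891 counts in the libraries labelled WT and KAT8-cKO. They were 2.83-fold (interval 2.62 to 3.06) and 2.86-fold (interval 2.65 to 3.10) lower, in the range of the wound keratins Krt6a and Krt6b at 2.36-fold and 3.79-fold lower. Krt6a and Krt6b had 74492 and 49218 counts in the library labelled WT. Whether reads of these abundant genes were counted for Gm5478 and Gm5414 was not tested. Krtdap, a secreted gene of differentiating keratinocytes, had 9437 and 5949 counts. Krt74, annotated as a pseudogene and so no member, had 0 and 2 counts.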
